A study of Mus musculus with 36 samples.

Results

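The genes described here are 10 leukocyte and macrophage genes: Ptprc, Cd52, Adgre1, Cd68, Lyz2, Itgax, Mrc1, Ccl2, Cd3e and Cd79a. They were chosen by name, and their symbols were matched to gene identifiers in the 6 count tables of the series, which together list 55991 genes. All 10 were listed in every table. The study asked what a short high-fat diet (HFD) of male mice leaves in their germ cells, embryos and offspring, with a low-fat diet (LFD) as the control. The samples are labelled as C57BL/6 wildtype (C57BL/6N in the study's methods), and 36 libraries were used. Cauda spermatozoa (3 HFD, 3 LFD) and round spermatids (6, labelled as 3 HFD and 3 LFD) came from males fed for 2 weeks. The morulae (3 HFD, 3 LFD) had been made by in vitro fertilization with sperm of such males and oocytes of unexposed females. Epididymal white adipose tissue (eWAT, 6), liver (6) and gastrocnemius muscle (6) came from sons of HFD-fed males, which are labelled as glucose tolerant (HFDt) or intolerant (HFDi) and had themselves been kept on chow. The columns of the tissue and spermatid tables carry library numbers that name no sample, no diet and none of these subgroups. Each of these tables was therefore treated as 1 group, and diet was compared only in sperm and morula. The spread of a tissue includes whatever separates HFDt from HFDi, and that of the spermatids whatever separates HFD from LFD.

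Resident macrophages are part of most organs, and the set covers several views of them. Ptprc encodes CD45, the phosphatase on the surface of nearly all nucleated blood cells, and Cd52 a small glycosylated surface peptide of lymphocytes and monocytes. Cd52 is also a known product of the epididymal epithelium, from which maturing sperm take it up. Adgre1 encodes F4/80, the classical mouse macrophage antigen, Cd68 a lysosomal glycoprotein of phagocytes and Lyz2 the lysozyme of myeloid cells. Itgax encodes the integrin CD11c of dendritic cells and of part of the macrophages in adipose tissue, Mrc1 the mannose receptor of tissue-resident macrophages, and Ccl2 a chemokine that draws monocytes. Cd3e belongs to the T cell receptor complex and Cd79a to the B cell receptor. In obese adipose tissue, macrophages gather around dying adipocytes, take up lipid and carry CD11c. In the liver, macrophages are mostly Kupffer cells of the sinusoids.

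Promoters of Ptprc and of 4 myeloid members are shown because these genes were counted together in eWAT, and because the transcription factor PU.1, which is known to drive myeloid genes, reads sites built around GGAA. The sequences are those of RefSeq (GRCm38.p6), whose promoter table holds 7 of the 10 genes with 8 promoters. The 150 bases before the start are given 5′ to 3′ on the gene's strand, and capitals mark GAGGAA or GGAAGT on either strand.
Lyz2, chr10:117282273-117282422, - strand: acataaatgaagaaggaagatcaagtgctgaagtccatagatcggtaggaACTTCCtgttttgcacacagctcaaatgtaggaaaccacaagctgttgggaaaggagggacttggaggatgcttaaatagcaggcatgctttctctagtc
Mrc1, chr2:14229264-14229413, + strand: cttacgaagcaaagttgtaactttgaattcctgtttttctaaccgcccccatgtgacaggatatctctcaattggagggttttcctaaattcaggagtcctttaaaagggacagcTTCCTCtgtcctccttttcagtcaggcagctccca
Itgax, chr7:128129400-128129549, + strand: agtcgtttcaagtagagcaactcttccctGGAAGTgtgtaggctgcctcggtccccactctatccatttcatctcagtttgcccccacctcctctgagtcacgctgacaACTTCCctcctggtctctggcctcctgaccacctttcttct
Ptprc, chr1:138175306-138175455, - strand: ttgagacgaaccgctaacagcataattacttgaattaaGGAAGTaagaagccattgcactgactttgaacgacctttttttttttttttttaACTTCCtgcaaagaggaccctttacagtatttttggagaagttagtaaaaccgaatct
Cd68, chr11:69666171-69666320, - strand: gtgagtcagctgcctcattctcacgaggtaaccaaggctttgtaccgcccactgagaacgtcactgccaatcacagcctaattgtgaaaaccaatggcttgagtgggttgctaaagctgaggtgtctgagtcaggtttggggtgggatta
The stretch of Cd68 holds neither motif, nor does that of a second Ptprc promoter, which is not printed. In the 250 bases before the start, GGAAGT stood in 7 of the 8 promoters of the set and in 19.7% of 32851 promoters of the table. GAGGAA stood in 5 of the 8 and in 23.3% of all, and at least 1 of both in 8 of the 8 and in 36.7% of all. Both Ptprc promoters are among the 8, and their 250-base stretches overlap and share a GGAAGT match, which was counted for each. By gene, only Cd68 of the 7 lacked GGAAGT. The T cell gene Cd3e and the B cell gene Cd79a, whose promoters are not printed, held both motifs. The letters overlap in GGAA, so a single stretch can match both, and a match is a description of the letters only.

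In the GENCODE vM21 annotation of GRCm38, Ptprc lies on chromosome 1 (138062861 to 138175708, minus strand), Lyz2 on chromosome 10 (117277331 to 117282321, minus), Cd68 on chromosome 11 (69664213 to 69666153, minus) and Adgre1 on chromosome 17 (57358691 to 57483527, plus). Cd52 lies on chromosome 4 (134082448 to 134095082, minus), where 172 of its 1187 exon bases overlap the antisense gene Crybg2. Counts of Cd52 and Crybg2 in the overlap can be told apart only if strand was used, which the sources used here do not state. Crybg2 had 9 counts in all in sperm, 4 in eWAT and 5 in liver, but 407 in morula and 210 in round spermatids, where Cd52 had 7 and 37. Lyz2 shares 15.4% of its 50-base windows with its neighbouring copy Lyz1, so part of its reads may have been dropped or split. Lyz1 had a median of 25.7 CPM (the count scaled to a fixed library total) in eWAT, against 658 for Lyz2. Itgax shares 8.02% of its windows with Itgad, which had 10 counts in eWAT but 3210 in round spermatids, where Itgax had 110. Cd79a shares 8.31% of its windows with Gm32220, which was at 0 in all 6 tables.

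Library totals were 1338149 to 4055537 counts in eWAT, 2036237 to 2552454 in liver and 369772 to 2749920 in gastrocnemius, all from 3′ tag libraries that count a transcript at its end. They were 2560219 to 4062321 in sperm, 11471251 to 12153141 in morula and 20138842 to 31056066 in round spermatids, all from Nextera libraries that cover whole transcripts. Where no read was counted, up to 3 counts remain possible, or 0.740 to 2.24 CPM in eWAT, 1.18 to 1.47 in liver, 1.09 to 8.11 in gastrocnemius, 0.738 to 1.17 in sperm, 0.247 to 0.262 in morula and 0.0966 to 0.149 in round spermatids, for counting error only. The tissues carried their own markers: 6 adipocyte genes summed to 23802 to 38494 CPM in eWAT, 6 hepatocyte genes to 44574 to 66067 CPM in liver and 5 myofibre genes to 38421 to 81439 CPM in gastrocnemius. Markers of other tissues stood out in 4 eWAT libraries. In library 17, 5 sperm and spermatid genes summed to 68.9 CPM, against 0 to 2.29 CPM in the other 5. Libraries 17 and 18 held the most epididymal epithelium markers (11.4 and 9.71 CPM, against 0 to 2.40). Library 25 held 1175 CPM of myofibre genes, against 38.7 to 358 in the others. Library 26 held 801 CPM of hepatocyte genes, against 85.9 to 432, and the highest sum of mesothelial genes (343 CPM, against 91.4 to 272).

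Of the 3 somatic tissues, eWAT held the most RNA of the set by far, whereas Cd52 reached its highest level in sperm. Summed over the set, the level was 738 to 1360 CPM of the library total in eWAT (median 929), 60.8 to 124 in liver (median 80.0) and 36.7 to 62.0 in gastrocnemius (median 55.2). The ranges of eWAT and liver did not overlap. Lyz2 alone made up 63.2 to 71.1% of the sum in eWAT, 19.3 to 43.1% in liver and 59.8 to 81.0% in gastrocnemius. Lyz2 stood first and Cd79a last among the 10 in eWAT on this scale of 1 tag per transcript, with medians of 658 and 0 CPM. Between them came Mrc1 (79.2), Cd68 (53.6), Cd52 (49.7), Adgre1 (49.4), Ptprc (42.9), Itgax (9.53), Cd3e (2.93) and Ccl2 (0.571). The ranges of Cd68, Cd52, Adgre1 and Ptprc overlapped, so the order within these 4 is not distinct. Mrc1 (63.2 to 85.3) overlapped Cd68, Cd52 and Adgre1 as well, so its place before them is not distinct either. The lowest Lyz2 value (467) was above every value of the other 9. In liver Mrc1 (23.5) and Lyz2 (20.2) had the highest medians and overlapping ranges. Lower medians were those of Adgre1 (13.6), Ptprc (9.26), Cd52 (8.23) and Cd68 (2.41). The ranges of Adgre1 and Cd52 reached into those of Mrc1 and Lyz2, and that of Ptprc just into that of Lyz2, so this order is not distinct.

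**Figure D1:**
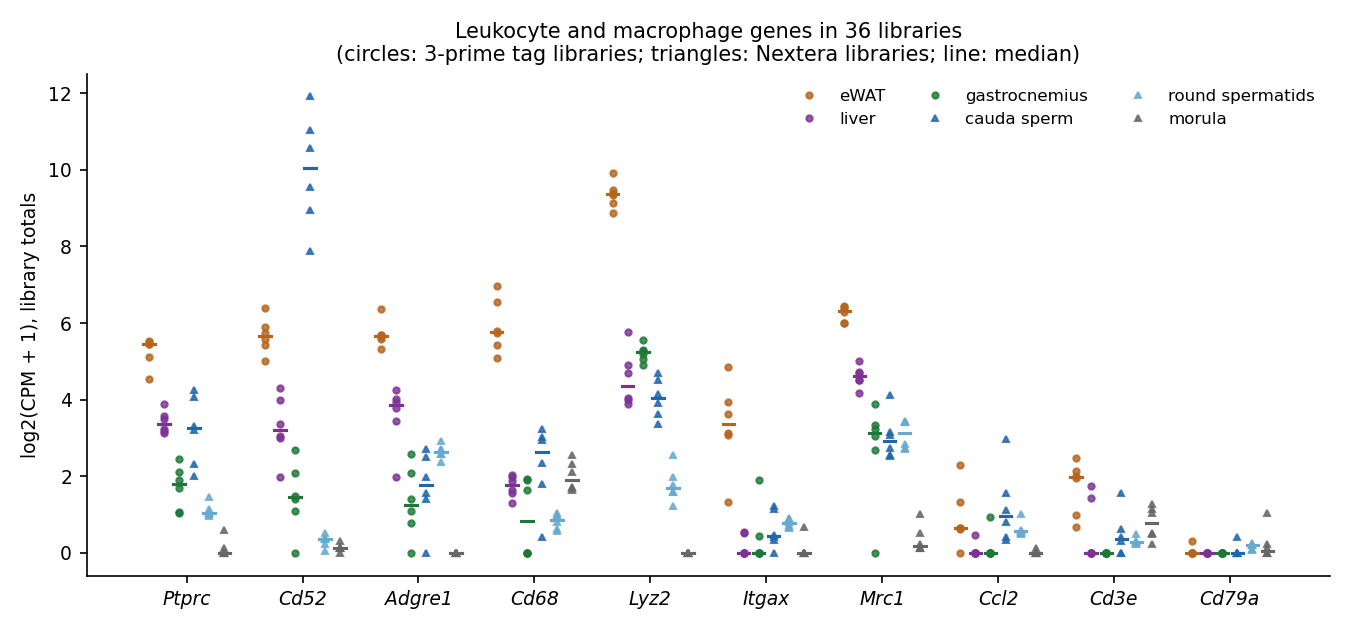
Level of each gene as log2(CPM + 1) of the library total in all 36 libraries, by tissue or cell (colour) and library type (circles, 3′ tag; triangles, Nextera), with the median as a line. Lyz2 is highest in eWAT (467 to 959 CPM), and Cd52 is highest in cauda sperm (234 to 3865 CPM).

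The set was more abundant in eWAT than in liver, and unequally so. Cd68 and Lyz2 were 14.6- and 13.9-fold higher, whereas Cd52, Adgre1, Ptprc and Mrc1 were 2.73-, 2.29-, 2.08- and 1.68-fold higher. In bulk tissue, fewer cells of a type and less RNA per cell cannot be told apart. All genes of the 18 libraries were fitted together with edgeR, and 6 of the 10 members had enough counts to be tested. All 6 were called higher in eWAT at an adjusted p under 0.05, where 61.3% of the 10851 genes tested were called in either direction and 32.5% higher in eWAT. Cd68 entered the test through its eWAT counts, since its liver counts were 3 to 7 in every library, so the count over tested members is no support in itself. The median log2 fold change over all genes was 0.07 and over the 6 members 1.32.

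Lyz2 ranged from 467 to 959 CPM of the library total in eWAT (median 658) and from 13.7 to 53.5 in liver (median 20.2). The groups lay far apart, and after scaling by TMM, which corrects for differences in RNA composition, the log2 fold change was 3.80 ± 0.27 (SE, n = 6 per tissue, adjusted p = 7.1e-12, edgeR). Cd68 ranged from 33.2 to 125 CPM in eWAT (median 53.6) and from 1.47 to 3.07 in liver (median 2.41), with no overlap and a log2 fold change of 3.87 ± 0.41 (SE, n = 6, adjusted p = 1.81e-08). Of the 6 tested members it had the largest fold, but that of Lyz2 lay within its SE, so their order is not distinct. Adgre1 ranged from 38.9 to 81.7 CPM in eWAT (median 49.4) and from 2.94 to 18.2 in liver (median 13.6), and differed by 1.19 ± 0.30 on the log2 scale (SE, n = 6, adjusted p = 0.00116). The groups of these 3 genes did not overlap, as was so for 41.9% of all genes and, with eWAT the higher, for 22.4%. Adgre1 was among them although F4/80 is a marker of Kupffer cells.

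Ptprc ranged from 22.4 to 45.4 CPM in eWAT (median 42.9) and from 7.67 to 13.8 in liver (median 9.26), a log2 fold change of 1.06 ± 0.24 (SE, n = 6, adjusted p = 0.000454). Cd52 ranged from 31.4 to 82.6 CPM in eWAT (median 49.7) and from 2.94 to 18.7 in liver (median 8.23), a log2 fold change of 1.45 ± 0.32 (SE, n = 6, adjusted p = 0.000418). Mrc1 had the smallest difference, with 63.2 to 85.3 CPM in eWAT (median 79.2), 17.2 to 31.4 in liver (median 23.5) and a log2 fold change of 0.75 ± 0.21 (SE, n = 6, adjusted p = 0.00378). On library totals these 3 genes did not overlap between the tissues, as was so, with eWAT the higher, for 48% of all genes, and after TMM scaling their ranges did overlap. TMM set factors of 1.44 to 1.70 for eWAT and 0.759 to 0.847 for liver, and when library totals were used instead, the median of all genes rose from 0.07 to 1.00 and the 6 folds with it, so that Mrc1 differed by 1.68 and Ptprc by 1.98 on the log2 scale.

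Itgax had too few counts outside eWAT to be tested. It had 235 counts in the 6 eWAT libraries, from 1.49 CPM in library 18 to 27.9 in library 17, and 2 counts in the 6 liver libraries, a ratio of 89.4 on library totals with an exact 95% interval of 24.5 to 743 for counting error only. Ccl2 had 26 counts in eWAT, 16 of them in library 27, and 1 in liver. Cd3e had 44 counts in eWAT, 2 to 17 per library, and 10 in liver, of which 6 fell in library 13 and 4 in library 23, a ratio of 3.35 (exact 95% interval 1.66 to 7.46). Cd79a had 1 count in eWAT and 0 in liver. These 3 genes were thus at or near the limit of detection in both tissues.

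**Figure D2:**
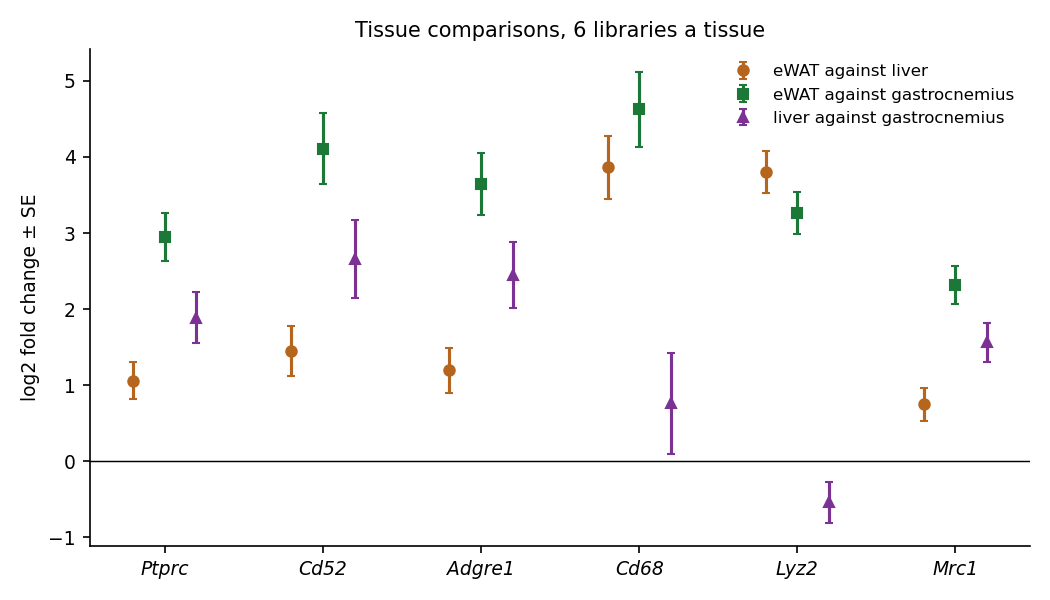
Log2 fold change ± SE of the 6 tested members in the 3 tissue comparisons, from 1 edgeR fit over 18 libraries with TMM scaling. All 6 lie above 0 in both eWAT comparisons, from 0.75 for Mrc1 to 4.63 for Cd68, and Lyz2 lies at -0.54 between liver and gastrocnemius.

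Other leukocyte genes, taken from 13 marker lists with 137 genes, were compared in the same fit. Of the 66 tested, 54 were higher in eWAT than in liver, 8 were lower and 4 were not called, beside 32.5% higher among all genes. Of these 66 genes, 19 had under 10 counts in every liver library and 7 had at most 3 counts in liver in all, so they passed the filter through other tissues and the count is no support in itself. Of 16 pan-leukocyte genes 13 were tested, of which 11 were higher and 1 lower. Srgn, the proteoglycan of secretory granules, differed by 2.88 ± 0.24 (SE, log2), Itgb2, the beta chain of the leukocyte integrins, by 2.83 ± 0.29, and Arhgdib by 2.67 ± 0.28. The exception was Ptpn6, a phosphatase that was lower in eWAT (log2 fold change -2.01 ± 0.29). Of 16 macrophage genes 15 were tested and 13 were higher. Itgam (CD11b) differed by 4.25 ± 0.50 and the Fc receptor chain gene Fcer1g by 2.61 ± 0.32. Cd14, which encodes the endotoxin co-receptor, had a TMM-scaled mean of 4.51 ± 0.952 CPM in eWAT (SD, n = 6) and 3 counts in all liver libraries.

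The Kupffer cell genes split. Of 7 listed, 6 were tested, 4 were lower in eWAT than in liver and 2 higher. Clec4f, a lectin particular to Kupffer cells, had 8 counts in the 6 eWAT libraries and 282 in the 6 liver libraries (log2 fold change -6.26 ± 0.46, SE). Cd5l, a secreted scavenger receptor family protein, differed by -5.24 ± 0.41 and the complement receptor gene Vsig4 by -3.17 ± 0.42. Folr2 and Cd163, which many resident macrophages outside the liver carry, were higher in eWAT by 2.71 ± 0.34 and 2.31 ± 0.22. Of the alternatively activated macrophage list, 5 of 6 tested genes were higher in eWAT and 1 lower. The resistin-like gene Retnla had 374 to 1274 CPM in every eWAT library and 1 count in the 6 liver libraries, a ratio of 8335 on library totals (exact 95% interval 1496 to 3.29e+05). The carbonyl reductase gene Cbr2 had 90.8 to 155 CPM against 1 count, a ratio of 1476 (265 to 58307). Arg1, also the urea cycle arginase of hepatocytes, was lower in eWAT, at a mean of 7.15 CPM against 2912 in liver.

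Of 23 chemokine, cytokine and receptor genes, 9 were tested, 7 of them higher in eWAT and 1 lower. Ccl8 was at 0 in all liver libraries and at 17.2 to 148 CPM in eWAT, at least 246-fold higher on library totals against a floor of 3 counts over the liver group. Ccl6 differed by 4.80 ± 0.25 and Ccr2, the receptor for the Ccl2 product, by 3.78 ± 0.38 (log2, SE), so the receptor was readily counted where its ligand was not. Tnf, Il6 and Il10 had 1, 4 and 4 counts in eWAT in all. All 6 tested genes of the dendritic cell and MHC class II list were higher in eWAT, among them H2-Aa by 3.91 ± 0.26, H2-Eb1 by 3.67 ± 0.27 and H2-Ab1 by 3.60 ± 0.32.

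Lymphocyte genes gave a mixed record. Beside the single Cd79a count, the eWAT libraries held 4640 counts of Igkc and 3206 of Ighm, antibody chains of B and plasma cells, and 667 of Jchain, whereas Cd79b and Ms4a1 had 59 and 44. Igkc, Ighm and Jchain were higher than in liver by 5.38 ± 0.54, 5.15 ± 0.75 and 3.78 ± 0.43 (log2, SE), and 8 of 11 B cell genes were not tested. Only Il7r of the 13 T cell genes could be tested, and it was higher by 3.56 ± 0.37. Of 5 mast cell genes 2 were tested and higher. The tryptase gene Tpsb2 had 441 counts in eWAT and 2 in liver (ratio 168, exact 95% interval 46.2 to 1390), and the carboxypeptidase gene Cpa3 had 153 and 1 (116, 20.6 to 4628). S100a8 was the only tested neutrophil gene (1.21 ± 0.47, adjusted p = 0.0302), and none of the natural killer and eosinophil genes was tested. Erythroid genes were more abundant in eWAT too, with 4 of 5 higher and the list summing to 4146 to 14074 CPM against 314 to 509 in liver. The exception was Alas2 (log2 fold change -0.04). All 5 endothelial, all 5 fibroblast and all 5 mesothelial genes were higher as well, beside 32.5% of all genes. The part of blood and of these other cell types in the leukocyte values was not tested.

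Gastrocnemius held little RNA of the set beside Lyz2. All 6 tested members were called higher in eWAT than in gastrocnemius, where 67% of 10851 genes were called in either direction and 40.8% higher in eWAT. Cd68 differed by 4.63 ± 0.49, Cd52 by 4.11 ± 0.47, Adgre1 by 3.64 ± 0.41, Lyz2 by 3.26 ± 0.27, Ptprc by 2.95 ± 0.31 and Mrc1 by 2.31 ± 0.25 (log2, SE, n = 6, largest adjusted p = 4.03e-08). None of these groups overlapped, as was so for 43% of all genes (26.8% with eWAT the higher). The counts in muscle were small, with 0 to 6 of Cd68, 0 to 4 of Cd52, 0 to 11 of Adgre1 and 1 to 10 of Ptprc per library, so that these genes too were tested through eWAT. Of the other leukocyte genes 60 of 66 were higher in eWAT and 0 lower, but 35 of the 66 had under 10 counts in every muscle library, so this count too is fixed in part by the filter.

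Between liver and gastrocnemius, 4 of the 6 tested members were higher in liver, where 66.3% of all genes were called and 34.8% higher in liver. Cd52 differed by 2.66 ± 0.51 (SE, adjusted p = 6.66e-05), Adgre1 by 2.45 ± 0.44 (2.32e-05), Ptprc by 1.89 ± 0.34 (2.17e-05) and Mrc1 by 1.56 ± 0.26 (8.83e-06). The groups of Cd52 and Adgre1 overlapped after TMM scaling. Cd52, Adgre1 and Ptprc had few counts in muscle and passed the filter through other tissues, so the count of 4 is no support in itself. Lyz2 did not follow these 4 members. It had 29.1 to 46.0 CPM in gastrocnemius, the narrowest relative range of any member there, and 13.7 to 53.5 in liver, a log2 fold change of -0.54 ± 0.27 (adjusted p = 0.0814), and Cd68 differed by 0.76 ± 0.66 (adjusted p = 0.318). Without liver library 24, which had the highest Lyz2 value of that tissue, the Lyz2 difference was -0.92 (adjusted p = 0.000720). The other leukocyte genes were likewise divided, with 32 of 66 higher in liver and 14 lower, the latter including Retnla, Cbr2, Clec10a, Itgam and both mast cell genes.

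Among the 6 eWAT libraries, Cd68 was the most variable of the tested members and Mrc1 the least. The SD of log2 CPM over the 6 libraries (TMM-scaled, prior count 2) was 0.69 for Cd68, at percentile 95.1 among genes of a similar mean level (10 classes), whose median SD was 0.29. Cd52 (0.40), Ptprc (0.41), Adgre1 (0.37) and Lyz2 (0.33) were above the median of their class as well, at percentiles of 74.0, 73.4, 67.1 and 56.4, and Mrc1 (0.24) was below it at 39.2. The 6 Cd68 values were 33.2, 41.9, 52.7, 54.6, 92.3 and 125 CPM of the library total in libraries 22, 27, 26, 18, 17 and 25. Libraries 25 and 17 thus stood above the other 4, which spanned less than the gap to them.

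The members did not rank the libraries alike. Library 25 was highest for Cd68, Adgre1 (81.7 CPM, against 38.9 to 50.3 in the other 5) and Lyz2 (959, against 467 to 705). It was so only narrowly for Mrc1 (85.3, with 84.8 in library 22) and Ptprc (45.4, with 44.4 in library 27). After TMM scaling, Ptprc was highest in library 27 (30.7 CPM, against 30.0 in library 25). Library 17 was highest for Cd52 (82.6, against 31.4 to 58.3) and Itgax (27.9, against 1.49 to 14.2). Library 18 was lowest for Ptprc (22.4), Adgre1 and Itgax, and library 27 for Lyz2. Ptprc and Cd52, both broad leukocyte genes, thus had their lowest values in different libraries, 18 and 26. Cd52 was highest in libraries 17 and 18 (82.6 and 58.3 CPM), which also held the most epididymal epithelium markers. Cd52 is a product of that epithelium too, and the part of epididymal RNA in its eWAT values was not tested.

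**Figure D3:**
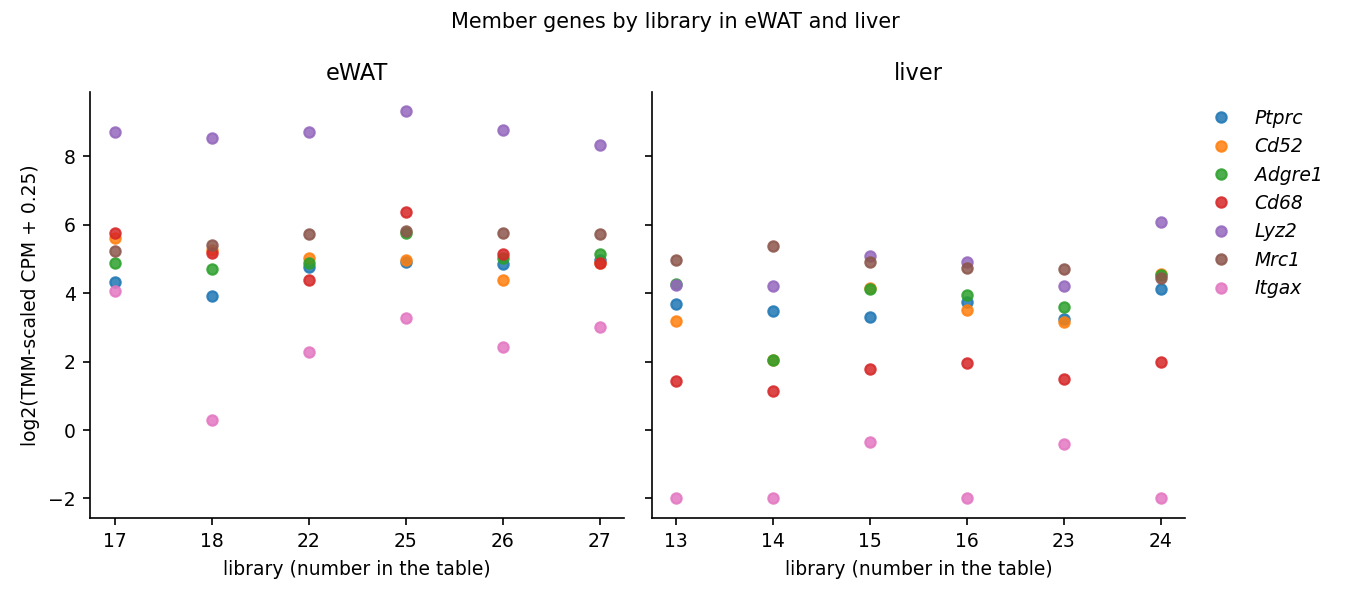
TMM-scaled CPM of 7 members in each of the 6 eWAT and 6 liver libraries, as log2(CPM + 0.25), each point a library. In eWAT, Itgax and Cd68 spread most and Mrc1 least, and in liver Lyz2, Cd52 and Adgre1 spread more than Ptprc and Mrc1.

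Genes of lipid-associated macrophages set the same 2 eWAT libraries apart. The 7-gene list summed to 846 CPM in library 17 and 1214 in library 25, against 197 to 294 in the other 4. Gpnmb, a lysosomal membrane glycoprotein, had 362 and 580 CPM in libraries 17 and 25 and 34.6 to 149 in the others. Lgals3 (galectin 3) had 228 and 456 CPM against 74.7 to 142, Mmp12, the macrophage elastase, 36.2 and 41.1 against 0.532 to 9.86, and Atp6v0d2, a subunit of the lysosomal proton pump, 23.3 and 59.9 against 1.72 to 11.2. Spp1 (osteopontin) had 50.1 and 25.4 CPM against 0.573 to 5.67. Each of these 5 genes was higher in libraries 17 and 25 than in the other 4 eWAT libraries, as were Cd68 and Itgax. Libraries 17 and 25 had been singled out by Cd68 in these same data. The share of all genes with such a split was not computed, so the count is no support in itself. Cd9 had 146 CPM in library 17, but 51.7 in library 25 was within the range of the others (39.5 to 61.3), and Trem2 was at 0 in all 18 tissue libraries.

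Against liver, 3 of the 4 tested genes of this list were higher in eWAT, Gpnmb by 7.02 ± 0.89 and Lgals3 by 5.33 ± 0.58, and Spp1, which bile duct cells are known to make, was lower (log2 fold change -2.94 ± 0.73). Antibody genes went the other way in library 25, which had the lowest Igkc (79.6 CPM, against 171 to 417), Ighm (79.6, against 99.4 to 263) and Jchain (10.3, against 25.4 to 62.4) of the 6. Library 25 was also the one with 1175 CPM of myofibre genes, and library 17 the one with spermatid genes. Adipocyte genes were lowest in these 2, at 23802 and 25156 CPM, against 27064 to 38494 in the others. What part these other tissues had in the macrophage values was not tested. Cd68 differed from liver by 3.57 on the log2 scale without library 25, the lowest value over all alternatives, and the same 6 members stayed called without it, without library 17 and without library 18.

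**Figure D4:**
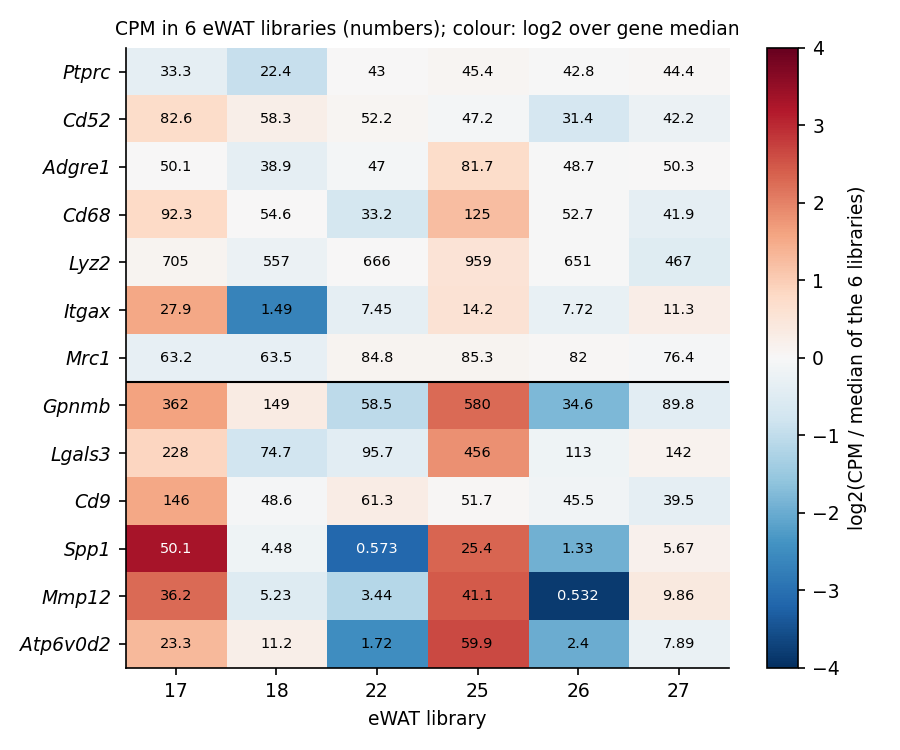
CPM of 7 members (above the line) and 6 lipid-associated macrophage genes (below) in each eWAT library, printed as numbers, with colour for the log2 ratio to the gene's median over the 6 libraries. Libraries 17 and 25 are red for Cd68, Itgax, Gpnmb, Lgals3, Spp1, Mmp12 and Atp6v0d2.

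In liver the spread lay with other members. Lyz2 had an SD of 0.73 on the log2 scale, at percentile 97.2 among genes of its class, and Adgre1 (0.84) and Cd52 (0.83) stood at percentiles 96.2 and 96.1. Ptprc (0.32) and Mrc1 (0.31) were at 20.5 and 42.3, and Cd68, with 3 to 7 counts a library, was at 1.94. The 6 Adgre1 values were 2.94, 9.80, 12.7, 14.4, 15.3 and 18.2 CPM in libraries 14, 23, 16, 15, 13 and 24. Cd52 followed a like order, from 2.94 CPM in library 14 to 18.7 in library 24, and Lyz2 rose from 13.7 to 53.5 in the same 2 libraries. Mrc1 had the opposite ends, with its highest value in library 14 (31.4) and its lowest in library 24 (17.2). Library 24 had the highest Kupffer cell sum (143 CPM, against 78.0 to 106) and macrophage sum (277, the next highest being 196.1), and also the most myofibre (73.2, against 10.6 to 23.5) and adipocyte markers (74.2, against 19.1 to 67.3). Not all genes of the Kupffer cell list followed its sum. Clec4f (36.8 CPM), Cd5l (54.0) and Folr2 (6.38) were highest in library 24. Vsig4 (22.6), Timd4 (3.44), Marco (4.42) and Cd163 (15.7) lay there within the range of the other liver libraries. The pan-leukocyte sum was level, at 65.4 to 78.2 CPM in the 6 libraries and 70.7 in library 24. Adgre1 and Cd52 had 6 counts each in library 14, so that their low end there is known only to within the error of so small a count.

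Genes whose profile over the 18 tissue libraries was most like a member's, after centring each gene on its tissue means, were mostly not leukocyte genes. Pearson's r was 0.80 for Lyz2 and the Kupffer cell lectin gene Clec4f, 0.80 for Cd52 and Alox5ap, a helper of leukotriene synthesis, and 0.84 for Cd68 and Igf1. For Cd52 it was higher still with Uba7 (0.85) and Nt5c2 (0.81), and the other likest genes were Cycs (0.78) and Setd1a (0.76) for Lyz2, and Cdt1 (0.84) and Fbrs (0.82) for Cd68. Adgre1 was most like Ints12, Ogfod1 and Ei24 (0.84 to 0.87), Ptprc like Tmem120a, Ccdc28a and Alg5 (0.73 to 0.76), and Mrc1 like Ipo8, Tanc1 and Edc4 (0.96 to 0.98). Mrc1 was at 0 in muscle library 4, and in eWAT alone r was -0.07 for Adgre1 and Ints12 and -0.20 for Mrc1 and Edc4. Clec4f was at 0 in all gastrocnemius libraries and had 8 counts in all in eWAT. Both Clec4f and Lyz2 were highest in liver library 24 among the liver libraries. The likest genes were picked for the highest r among the 10851 tested genes. These values describe 18 libraries of unequal depth and were not tested.

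In cauda sperm, Cd52 dominated the set. It had 862, 1489 and 3040 counts on HFD (234, 497 and 748 CPM of the library total) and 4401, 6419 and 9896 on LFD (1511, 2104 and 3865 CPM). The 3 HFD values lay below the 3 LFD values, as was so for 57.2% of all genes on library totals. Cd52 made up 87.7 to 98.9% of the summed CPM of the 10 genes and ranked 13th to 78th among all genes of a library. Per length it reached a median of 952 RPKM, against 11.7 for Lyz2, 4.28 for Cd68, 1.03 for Mrc1 and 0.468 for Ptprc. Without Cd52 the set summed to 32.9 to 52.4 CPM on HFD and 44.5 to 50.1 on LFD, which overlap.

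Epididymal genes were abundant in the same libraries. Crisp1, a secreted protein that coats sperm in the epididymis, had 1585, 1918 and 2604 CPM on HFD and 2474, 7804 and 23483 on LFD, and Adam7 had 42.9 to 275 CPM on HFD and 539 to 1494 on LFD. Lcn5 and Lcn8, which are made nearer the head of the epididymis, had 6 and 4 counts in all. The whole list of 7 epididymal genes summed to 1631 to 2881 CPM on HFD and 3020 to 25008 on LFD. It was thus lower on HFD with no overlap, as were Cd52 and 57.2% of all genes on library totals. The Crisp1 values of the 2 diets overlapped, and the ratio of Cd52 to Crisp1 was 0.148 to 0.611. The part of epididymal RNA in the Cd52 difference was not tested. The lymphocyte receptor genes Cd3e and Cd79a had 9 counts and 1 in the 6 libraries together.

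Whether the diets differed depended on the scaling of the sperm libraries. TMM set factors of 0.442 to 0.716 for HFD and 1.52 to 2.58 for LFD, and across all genes the median log2 fold change lay at -0.07 with TMM but at -1.82 on library totals. With TMM, edgeR called 0 of the 5 tested members, and 0% of the 8643 genes tested. An unadjusted p under 0.05 was reached by 1110 genes, and DESeq2 called 295. Cd52 differed by -0.60 ± 0.59 (SE, n = 3 per diet, adjusted p = 0.726) with TMM and by -2.34 (adjusted p = 0.0136) with library totals, a scale on which 3262 genes were called, all of them lower on HFD. Cd52 lay below the median of all genes on both scales.

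The macrophage members were on the other side. On the TMM scale, so were all 5 tested genes of the sperm and spermatid list, with a median of 1.22, beside 1.22 for the 5 tested members. With TMM, Cd68 differed by 2.65 ± 0.99 (SE, n = 3, adjusted p = 0.295), Mrc1 by 2.19 ± 0.75 (0.285), Lyz2 by 1.22 ± 0.58 (0.400) and Ptprc by 1.08 ± 0.76 (0.596), all higher on HFD and none called. The TMM-scaled means of Cd68 were 11.9 ± 7.29 CPM on HFD and 1.83 ± 1.41 on LFD (SD, n = 3), and the groups of Cd68, Mrc1 and Lyz2 did not overlap, as was so for 20.4% of all genes (8.12% with HFD the higher). The counts behind these values were 25, 10 and 26 of Cd68 on HFD and 12, 1 and 17 on LFD. With library totals Lyz2 and Ptprc turned to -0.40 and -0.38, and DESeq2 called Mrc1 (2.33, adjusted p = 0.0432). Adgre1 had 5, 12 and 17 counts on HFD and 0, 17 and 5 on LFD and was not tested, nor were Itgax, Ccl2, Cd3e and Cd79a. Ccl2 had 1, 3 and 1 counts on HFD and 20, 6 and 3 on LFD.

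**Figure D5:**
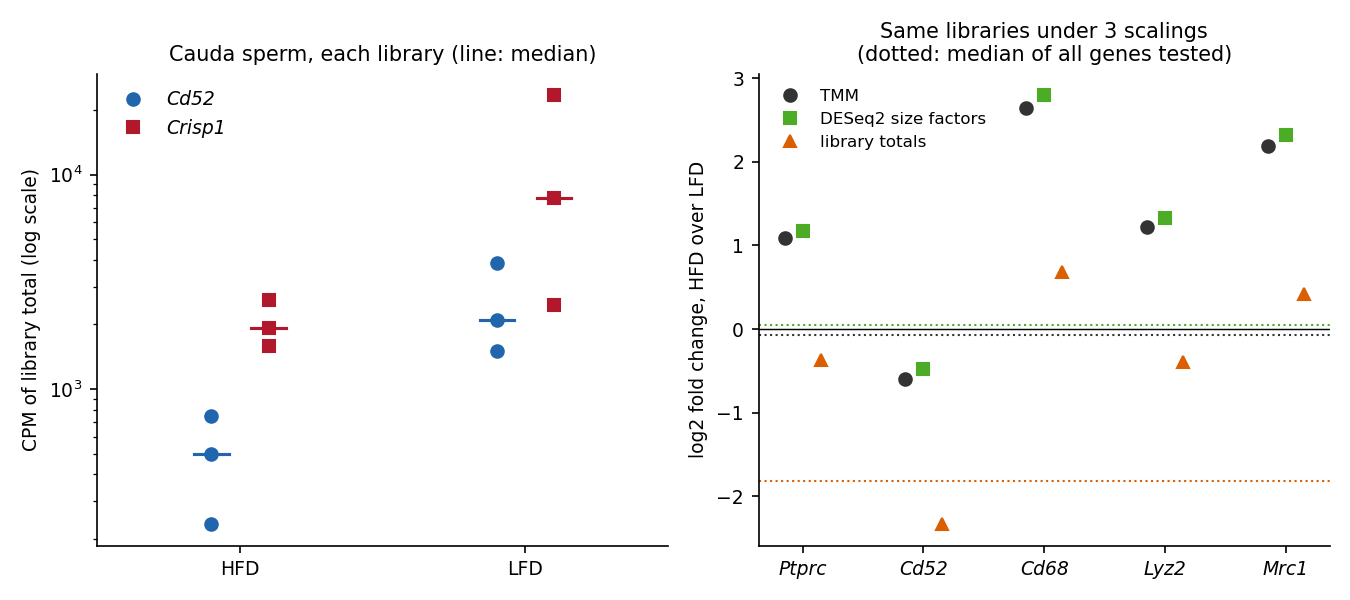
Left, CPM of Cd52 and Crisp1 in each of the 3 HFD and 3 LFD sperm libraries, on a log axis with the median as a line. Right, log2 fold change of HFD over LFD for the 5 tested members under 3 scalings, with the median of all genes dotted for each, where library totals lower every value by more than 1 and move Lyz2 and Ptprc below 0.

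None of the 26 tested genes of the other leukocyte lists was called in sperm. Those with the smallest p of their list were Srgn (3.38 ± 0.85, SE), C1qc (2.96 ± 0.79), Cx3cr1 (2.72 ± 0.74) and H2-Aa (2.20 ± 0.59), each with an adjusted p of 0.236. The macrophage list had a positive difference in 8 of 9 tested genes, where the median of all 8643 genes was -0.07. The share of all genes with a positive value was not computed, and all 4 tested dendritic cell and MHC class II genes were positive too. On library totals the macrophage list summed to 64.1 to 102 CPM on HFD and 52.9 to 173 on LFD. On the same totals the pan-leukocyte list summed to 29.1 to 63.3 CPM on HFD and 80.7 to 155 on LFD, and the neutrophil list to 1.90 to 18.7 and 43.9 to 90.6, with no overlap. On that scale 57.2% of all genes were lower on HFD with no overlap, and with TMM 3 of 5 tested pan-leukocyte genes had a positive value (median 0.48). Genes of other cells had like differences on the TMM scale, such as the globin gene Hbb-bs (2.32 ± 0.72, adjusted p = 0.246) and all 5 erythroid genes. So had the collagen gene Col3a1 (1.62 ± 0.59) and all 4 tested fibroblast genes and, of the sperm's own genes, Odf1 of the sperm tail (2.00 ± 0.73). By contrast, Gpnmb (-0.73 ± 0.56), S100a8 (-1.03 ± 0.72) and Adam7 (-0.92 ± 0.60) had negative values, none of them called. In the study's methods, sperm were collected from a supernatant rich in motile cells and treated with a detergent buffer that lyses somatic cells. The part of any remaining blood or stromal RNA, and of the scaling, in the values of the macrophage members was not tested.

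Morulae, which hold no blood cells, were close to empty of the set. Lyz2 and Adgre1 were at 0 in all 6 libraries, which allows up to 0.262 CPM in each. Ptprc, Cd52, Itgax and Ccl2 had 7, 7, 7 and 1 counts in the 6 libraries together. Mrc1 had 22, of which 12 fell in library ML3, and Cd79a 16, of which 13 fell in library ML1. Only Cd68 had counts over the floor in every library, at 1.69 to 3.87 RPKM, beside 0.261 to 6.64 in sperm and 0.380 to 0.837 in round spermatids. Other genes of the leukocyte lists were well counted in morulae. The phosphatase gene Inpp5d had 34.1 to 41.4 CPM and Csf3r, the receptor for the neutrophil growth factor, 59.9 to 90.0.

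By paternal diet, edgeR called 0 of the 2 tested members and 0% of 13447 genes, with 871 genes at an unadjusted p under 0.05 and 18 called by DESeq2. Cd68 had 25, 26 and 28 counts in HFD morulae and 39, 46 and 59 in LFD morulae. The groups did not overlap, as was so for 12.1% of all genes (6.18% with HFD the lower), and the log2 fold change was -0.88 ± 0.41 (SE, n = 3 per diet, adjusted p = 0.767). Cd3e had 2, 5 and 14 counts against 5, 12 and 17, which overlap (-0.71 ± 0.87, adjusted p = 0.933). For 3 of the morula samples a description in the labels names the other diet than title and treatment field do, so these directions hold for the diet in the titles. None of the 28 tested genes of the other leukocyte lists was called, and those with the smallest p were Folr2 (2.12 ± 0.81, adjusted p = 0.689), Arg1 (0.97 ± 0.39), Vav1 (0.91 ± 0.39) and Cd22 (0.53 ± 0.23).

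Round spermatids held low counts of the set. Adgre1 and Mrc1 were the most counted, with 100 to 155 and 141 to 239 counts per library (4.14 to 6.61 and 5.53 to 9.93 CPM). Per length, Lyz2 had a median of 1.70 RPKM, Adgre1 1.60 and Mrc1 1.24, with overlapping ranges, and the other 7 genes lay below 1 RPKM. Cd52 had 1 to 9 counts per library (0.0335 to 0.358 RPKM), against 197 to 3256 RPKM in cauda sperm, a comparison of levels between separate experiments with no test. The macrophage list summed to 211 to 251 CPM in round spermatids, but Aif1 alone had 29729 of its counts, at a median of 131 RPKM, and Itgam had 15 counts in the 6 libraries. Diet could not be read from the column names of this table, so its ranges pool HFD and LFD.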

How the data were processed

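RNA was sequenced from cauda sperm (single-end) and from morulae and round spermatids (paired-end) as Nextera libraries, and from eWAT, liver and gastrocnemius as QuantSeq 3′ libraries. The authors trimmed reads with BBDuk, aligned them to GRCm38 with STAR and deposited raw counts per gene from featureCounts, on which no normalization had been done. Whether strand was used, and how reads matching several genes were treated, is not given in the sources used here.

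Gene identifiers were matched to symbols with RefSeq and GENCODE vM21 tables. Counts were fitted with edgeR 4.0.16 in R 4.3.3 (filterByExpr with a minimum count of 10, TMM on library totals, robust quasi-likelihood test, Benjamini-Hochberg adjustment, threshold 0.05), for sperm, for morula and for the 18 tissue libraries apart, and the fits were tested on simulated data. DESeq2 1.42.0, other scalings, no filter and leaving out each library were alternatives. Ratios of few counts have exact binomial intervals at 95%. Nextera libraries were compared between genes as RPKM over exon length.

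The 10 members and the marker lists were chosen with earlier results of these data known. The text names all members, up to 3 genes of each list with the largest fold among those called in eWAT against liver, the gene with the smallest p of a list in sperm and morula, and the 3 genes most like each tested member. Genes given beyond these were chosen after their values were seen. The labels do not tie libraries to separate animals, so p-values measure the spread between these libraries, which may be partly technical.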

Additional observations from a re-analysis of the deposited data

Results flagged for a closer look

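In 4 of 32 pairs of a member and a group of 6 libraries, 1 library lay far from the others by Dixon's criterion, where chance gives about 1 in 20. Adgre1 had 81.7 CPM in eWAT library 25, against 38.9 to 50.3 in the other 5, and that library also had 1175 CPM of myofibre genes. The round spermatid group pooled both diets. In it, library MUC14365 was highest for Ptprc (1.74 CPM, 43 counts) and Ccl2 (1.01 CPM, 25 counts), and library MUC14364 for Cd3e (0.397 CPM, 8 counts). Library MUC14365 was also highest for Lyz2 (4.85 CPM) and Cd68 (1.05 CPM), which were not past the criterion. Other libraries were highest for the remaining members.

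Cd68 differed between the diets in opposite directions in sperm and morula. Every HFD sperm library was above every LFD one (log2 fold change 2.65 with TMM), and every HFD morula library was below every LFD one (-0.88). Such a lack of overlap was seen in 20.4% of all genes in sperm (8.12% with HFD the higher) and 12.1% in morula (6.18% with HFD the lower). The difference between both was not tested, neither was called, and on library totals the sperm value was 0.69 with overlapping groups.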

How the results depend on the processing

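Of 374 alternative values for the 25 log2 fold changes of members, 369 kept the direction and the side of the threshold. In sperm, the number of members called went from 0 to 1 with library totals (Cd52, -2.34) and to 1 with DESeq2 (Mrc1, 2.33), and with library totals Ptprc (-0.38) and Lyz2 (-0.40) changed sign. The cause was not tested, but library totals also moved the median of all genes to -1.82. Lyz2 between liver and gastrocnemius was called without liver library 24 (-0.92). Without each library in turn, 6 to 7 members were called in eWAT against liver and against gastrocnemius, 4 to 5 in liver against gastrocnemius, and 0 to 0 in sperm and in morula. The additional call in eWAT against liver was Itgax.

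Over all genes, sperm gave 0 calls with the filter, 29 without it, 3262 with library totals (0 higher, 3262 lower) and 295 with DESeq2 (272 higher, 23 lower). Morula gave 0, 50 without the filter and 18 with DESeq2. With library totals, eWAT against liver had 6998 genes higher and 1403 lower (3523 and 3126 with TMM), and eWAT against gastrocnemius 7323 and 1226 (4429 and 2842). Leaving out eWAT libraries 17 and 18 together, chosen after seeing the data, gave 7 members in each eWAT comparison. No paired analysis was possible because the columns do not carry the replicate numbers of the titles. Depth limits Ccl2, Cd3e and Cd79a in eWAT, liver and gastrocnemius, and most members in gastrocnemius, where 3 counts were up to 8.11 CPM.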
